A study of Mus musculus with 9 samples.

Results

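The *Rbbp4* Ins/Del line of mouse embryonic stem cells (ESCs) was compared with its control, the *Rbbp4*+/+ E14 ESCs, across all genes. The libraries were chosen by their genotype labels, 3 for *Rbbp4* Ins/Del and 3 for *Rbbp4*+/+, which makes 6 of the 9 RNA-seq libraries of the series. The other 3 libraries came from Ins/Ins ESCs and were used for the shared estimate of spread and for a direct test between the mutant lines. All lines were E14 ESCs of a 129 strain, grown undifferentiated with 15% fetal bovine serum and leukemia inhibitory factor. Both mutant lines were made with CRISPR-Cas9 and share the Ins allele, in which 3 nucleotides are inserted. Ins/Ins cells carry it on both alleles, and Ins/Del cells carry it on 1 allele with an 18-nucleotide deletion, Del, on the other. Each mutant line is 1 clone, so an effect of the alleles and a change that arose in the clone cannot be told apart. The replicates are called triplicates and nothing says that they were separate cultures, so the p-values measure the spread between these libraries, which may be technical.

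RBBP4 is a histone-binding protein built of WD40 repeats. It has no catalytic activity of its own and serves as a shared subunit of Polycomb repressive complex 2 (PRC2), the NuRD and SIN3 deacetylase complexes, the chromatin assembly factor CAF-1, the remodeler NURF and the MuvB core of cell cycle gene regulators. Its close paralog RBBP7 takes the same place in several of these complexes. In ESCs these complexes hold genes of other lineages and of the germline at low levels while the pluripotency genes stay active.

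The reference sequence at the edited site is shown because the Del allele is defined on it. The site lies in the coding part of exon 3 of the GENCODE transcript of *Rbbp4* that has 12 exons and encodes 425 residues, on the minus strand of GRCm38 at chr4:129328628-129328681. The sequence is from the GENCODE transcript in the direction of transcription and covers codons 73 to 90, with capitals for codons 79 to 84, whose 6 residues (leucine, valine, isoleucine, alanine, serine and valine) the Del allele lacks.
Rbbp4 codons: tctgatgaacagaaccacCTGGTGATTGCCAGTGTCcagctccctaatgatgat

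The 6 libraries held between 15838064 and 21366868 counted reads, and 20497 of 25239 genes had at least 1 read. The scaling factors of all 9 libraries lay between 0.9926 and 1.016, and ribosomal precursor RNA (*Rn45s*) took between 1.40% and 2.60% of reads. The first principal component held 83.6% of the variance and separated the mutant lines from control, and on it no library stood apart from its line. Control replicate 2 had the lowest *Rn45s* share and the highest scaling factor. Its counts differed from those of control replicates 1 and 3 by a chi-square per gene of 4.62 and 3.89. Between replicates 1 and 3 the value was 2.62. The cells carried the markers of their label. *Pou5f1*, the gene of OCT4, had between 17233 and 18507 normalised counts in control and between 17337 and 17849 in Ins/Del, and *Sox2* between 11247 and 11610 and between 11291 and 11812. *Pou5f1* (log2 fold change -0.03, edgeR, Benjamini-Hochberg adjusted p = 0.30) and *Sox2* (0.02, edgeR, Benjamini-Hochberg adjusted p = 0.59) passed no threshold.

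Of 14125 genes tested, 8829 differed between Ins/Del and control at an adjusted p of at most 0.01 (edgeR quasi-likelihood test, Benjamini-Hochberg). Expression was higher in Ins/Del for 4321 genes (30.6% of those tested) and lower for 4508 (31.9%). Of the genes called, 51.7% changed by less than 1.5-fold and 70.2% by less than 2-fold. With a fold change over 2 and a mean of more than 20 normalised counts, 899 genes were upregulated (6.36%) and 1143 downregulated (8.09%). Changes over 4-fold were made by 314 and 352 genes, and over 16-fold by 48 and 56. In 2039 of these genes every Ins/Del library lay on one side of every control library. The median log2 fold change over all tested genes was -0.01. RNA was taken from whole cultures, so fewer cells that express a gene and less of its RNA per cell cannot be told apart.

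**Figure D1:**
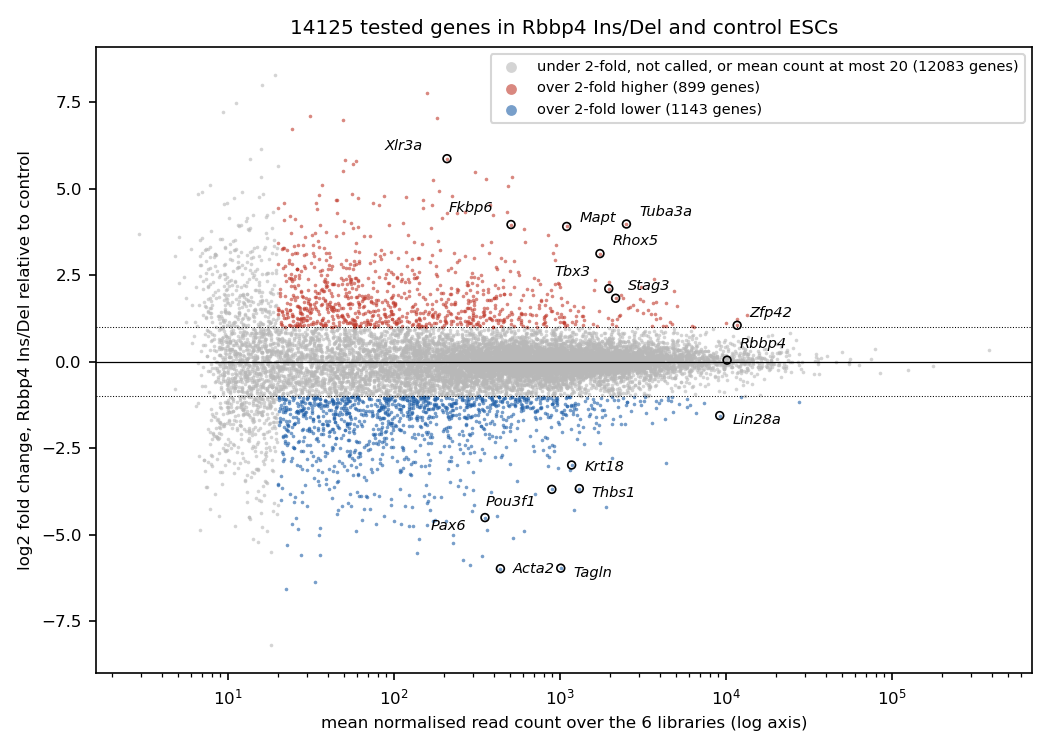
Mean normalised count over the 6 libraries (log axis) against the log2 fold change of *Rbbp4* Ins/Del over control for the 14125 tested genes, with the 899 genes upregulated over 2-fold in red and the 1143 downregulated in blue. Changes are spread on both sides of 0 at low and high counts.

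*Rbbp4* itself had 9932, 9965 and 10117 normalised counts in the control libraries and 10129, 10344 and 10603 in the Ins/Del libraries. Every Ins/Del library was above every control library, by a log2 fold change of 0.05 that missed the threshold (edgeR, Benjamini-Hochberg adjusted p = 0.107). Both alleles of the Ins/Del line keep the reading frame, so the read count does not check the genotype. *Rbbp7*, the paralog, fell from 7987, 7802 and 7828 to 6703, 6630 and 6894, without overlap and by 0.22 on the log2 scale (edgeR, Benjamini-Hochberg adjusted p = 4.7e-09). *Ep300*, which encodes the acetyltransferase p300, had 5499 ± 106 normalised counts in control (SD, n = 3) and 4934 ± 104 in Ins/Del (SD, n = 3), a log2 fold change of -0.16 that passed the test.

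Genes of the complexes that hold RBBP4 changed mostly by less than 2-fold. In PRC2, 8 of 11 members rose and 0 fell, with a median log2 fold change of 0.66. *Eed*, a core subunit that reads H3K27me3, rose from 4842 ± 55.0 to 7647 ± 61.4, *Jarid2*, an accessory subunit, rose by 0.76 on the log2 scale, and *Phf19*, a Polycomb-like subunit, rose from 102.6, 120.5 and 114.8 to 323.0, 308.6 and 296.2. *Phf19* was the member of the list past 2-fold. The catalytic subunit gene *Ezh2* (0.06) passed no threshold. In NuRD, 6 of 13 members rose, among them the remodeler *Chd5* (1.26), and 3 fell, among them *Mta1* (-0.68). In the SIN3 and CoREST list 4 of 19 rose and 9 fell, with *Rcor2*, a CoREST subunit of stem and neural cells, at -0.60. In the list of CAF-1, NURF and MuvB 8 of 14 rose and 2 fell, with the MuvB partner *Mybl2* at 0.53. Of 10 lysine acetyltransferase genes, 3 rose, led by *Kat6b* (0.70), and 5 fell, led by *Kat7* (-0.43). Over all tested genes 30.6% rose and 31.9% fell.

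The pluripotency genes moved with their stage. Of 15 naive genes, 12 rose, 3 of them over 2-fold, and 1 fell, with a median of 0.59. *Tbx3*, a naive transcription factor, had 740.4, 759.5 and 720.0 normalised counts in control and 3252, 3290 and 3074 in Ins/Del. These libraries did not overlap and differed 4.33-fold (log2 2.12, SE 0.0420; edgeR, Benjamini-Hochberg adjusted p = 2.6e-33). *Zfp42* (Rex1), a classical ESC marker, rose from 7602 ± 283 to 15812 ± 311, and *Tcl1*, a co-activator of AKT, rose 2.29-fold. *Klf4* (0.77), *Klf5* (0.85), *Tfcp2l1* (0.81), *Esrrb* (0.59) and *Nanog* (0.43) rose by less. *Dppa3* (Stella), which protects DNA methylation in the egg and early embryo, ran the other way, from 424.0, 411.7 and 414.7 to 163.6, 175.9 and 204.8.

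Genes of the formative and primed stages, through which cells leave naive pluripotency, were lower. Of 15 members 11 fell, 9 of them over 2-fold, and 3 rose, with a median of -1.19. *Fgf5*, the growth factor that marks the epiblast, had 213.7, 208.5 and 216.5 normalised counts in control and 6.13, 9.02 and 9.26 in Ins/Del. It was 26.2-fold lower (log2 -4.69). Its Ins/Del libraries lay below the limit of the filter on low counts, which largely fixed its direction. *Pou3f1* (OCT6) fell 12.7-fold, from 1676, 1557 and 1747 to 141.1, 104.7 and 145.8, and *Otx2*, which starts the exit from naive pluripotency, fell by 2.19 on the log2 scale, from 1341, 1303 and 1481 to 298.5, 307.7 and 297.4. The zinc finger gene *Sall2* was 34.5-fold lower. The de novo DNA methyltransferase genes *Dnmt3a* (-1.31) and *Dnmt3b* (-1.19) are in this list, and their cofactor *Dnmt3l* rose from 6966 ± 234 to 16419 ± 276. *Otx2* and *Sall2* lie on the stretch of chromosome 14 described later, which was lower as a whole.

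Among 12 core pluripotency genes 5 rose (41.7%) and 4 fell (33.3%), against 30.6% and 31.9% of all tested genes, and 1 changed over 2-fold. That gene was *Lin28a*, an RNA-binding inhibitor of let-7 processing, with 13558, 13606 and 13977 normalised counts in control and 4590, 4602 and 4829 in Ins/Del, which is 2.93-fold lower (edgeR, Benjamini-Hochberg adjusted p = 8e-34). In the DNA methylation and TET list, which does not hold the de novo enzymes, 4 of 5 genes rose and 1 fell, with *Tet2* at 0.57 and the maintenance methyltransferase *Dnmt1* at 0.17.

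**Figure D2:**
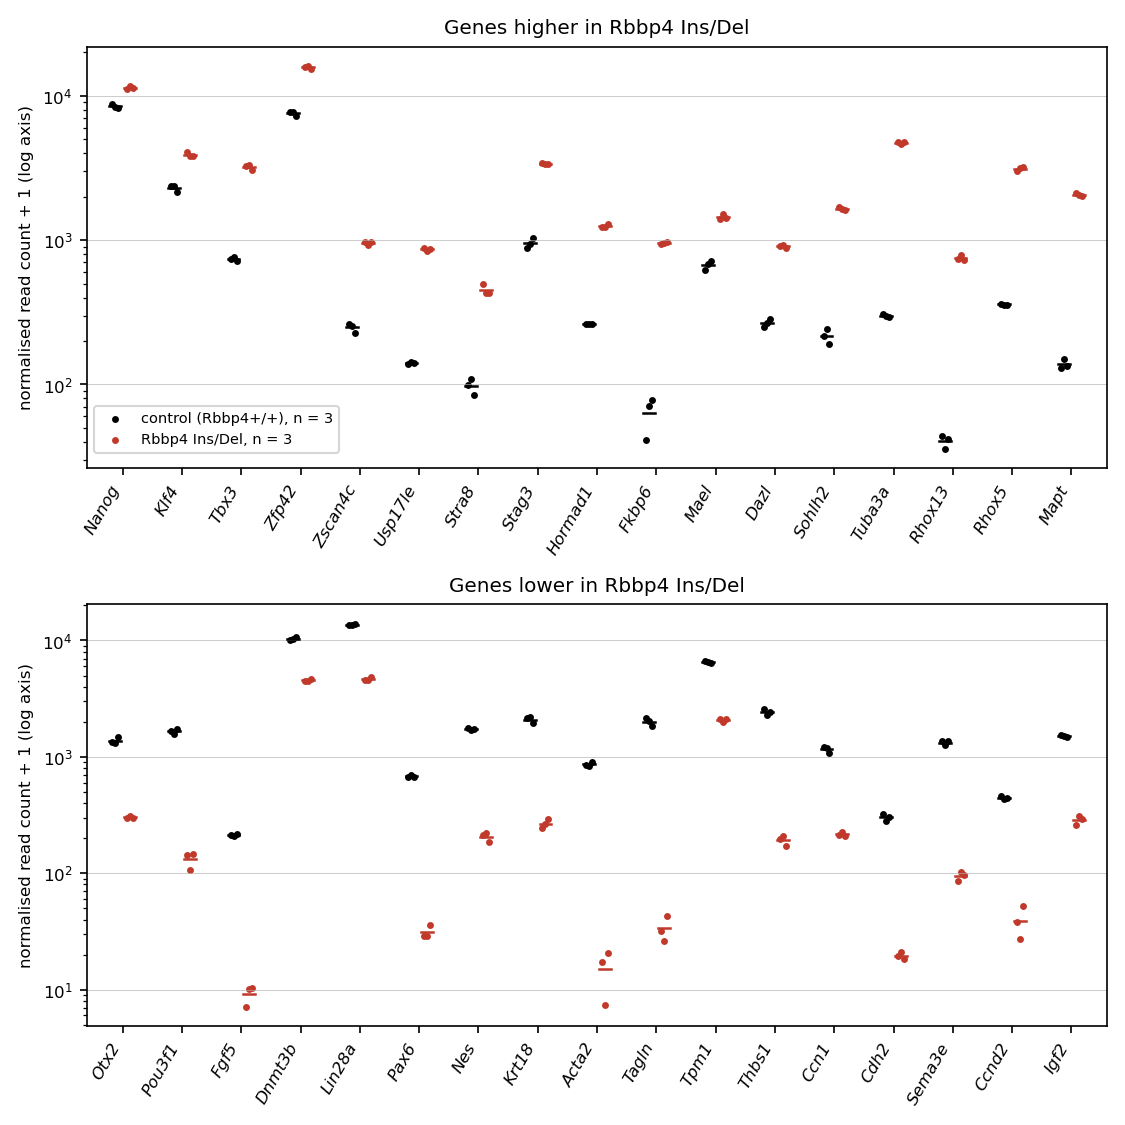
Normalised counts plus 1 (log axis) in each control library (black) and each *Rbbp4* Ins/Del library (red) for 17 upregulated and 17 downregulated genes, with bars at the means. The libraries of a line lie close together beside the distance between lines.

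Genes of the 2-cell-like state, a rare state of ESC cultures that resembles the 2-cell embryo, were higher without exception among those tested. Of 20 genes listed 18 were in the files and 14 were tested, and all 14 rose over 2-fold with a median of 1.91. Their summed level went from between 1677 and 1716 in control to between 6498 and 6743 in Ins/Del. *Usp17le*, a ubiquitin protease gene, had 138.5, 142.5 and 139.7 normalised counts in control and 879.2, 846.4 and 862.0 in Ins/Del (6.15-fold; edgeR, Benjamini-Hochberg adjusted p = 7.8e-29). *Zscan4c*, the namesake marker of the state, rose from 263.3, 254.5 and 226.3 to 965.0, 924.9 and 963.8. Both genes belong to families of near-identical copies, *Zscan4* and *Usp17l*, whose counts depend on how reads with several matches were counted, so single copies are uncertain. *Tdpoz3*, of another family of copies, stood at 14.4 ± 7.24 and 104.0 ± 4.53 and led the list in log2 fold change (2.84).

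Germline genes were upregulated in several lists. Meiotic chromosome genes rose in 15 of 26 cases (57.7%), 9 over 2-fold, and fell in 3 (11.5%). Over all tested genes 30.6% rose and 31.9% fell. *Hormad1*, which marks unsynapsed chromosome axes, had 261.6, 262.9 and 263.1 normalised counts in control and 1242, 1223 and 1284 in Ins/Del, a 4.76-fold increase (edgeR, Benjamini-Hochberg adjusted p = 5.9e-30). *Stag3*, a cohesin subunit of meiosis, rose from 883.1, 932.3 and 1037 to 3410, 3387 and 3368, and *Smc1b*, another, rose 4.50-fold. *Stra8*, the retinoic acid target that starts meiosis, rose from 96.5 ± 12.4 to 451.8 ± 38.1. The meiotic genes were not uniform. *Rec8*, the meiotic kleisin, fell 3.03-fold and lies on the lower stretch of chromosome 14, and *Sycp3*, an axis protein gene, fell by 1.38, with 52.2% of its exon length on exons of *Chpt1* of the opposite strand.

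In the piRNA pathway, which silences transposons in germ cells, 8 of 15 members rose (53.3%) and 6 fell (40.0%). Both shares were above those over all tested genes, 30.6% and 31.9%. *Fkbp6*, a co-chaperone of piRNA loading, had 40.2, 70.2 and 76.9 normalised counts in control and 944.6, 955.5 and 962.7 in Ins/Del, 15.3-fold more (edgeR, Benjamini-Hochberg adjusted p = 3.4e-30). *Tdrd9*, an RNA helicase, rose 12.5-fold, *Mov10l1* 2.71-fold and *Mael* 2.16-fold. The Tudor genes *Tdrd1* (-1.28) and *Tdrd5* (-1.50) fell. Of 16 germ cell regulators and markers 11 rose (68.75%), 9 over 2-fold, and 1 fell (6.25%). *Tuba3a*, a testis tubulin, had 308.6, 296.4 and 291.2 normalised counts in control and 4805, 4611 and 4809 in Ins/Del, a 15.9-fold increase (edgeR, Benjamini-Hochberg adjusted p = 1.7e-41). Its near copy *Tuba3b* had a log2 fold change of 4.55, and reads may be split between them. *Sohlh2*, a transcription factor of early oocytes and spermatogonia, rose from 215.3 ± 27.3 to 1648 ± 42.4, and *Dazl*, an RNA-binding protein of germ cells, rose from 248.8, 264.0 and 281.5 to 913.9, 924.9 and 877.0. *Ddx4*, the germ cell helicase, stood at 700.1 ± 38.4 and 726.1 ± 30.0 and passed no threshold, and *Tfap2c*, a transcription factor of primordial germ cells, fell by 0.21.

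Promoter sequences of 6 of these germline genes are shown for the E-box they share. The letters CACGTG, the same on both strands, were searched in the RefSeq window from 250 bases before to 50 after the gene start, in the first window of each gene. They were found in 10.3% of the 11125 tested genes that have a window and in 7.24% of all 27025 windows. The share was 40.0% in the piRNA pathway (6 of 15 windows), 27.8% in germ cell regulators (5 of 18) and 24% in meiotic genes (6 of 25), while among all genes upregulated over 2-fold it was 8.97%. A match describes the letters and no binding was measured. Stag3 lies on the plus strand at chr5:138280319-138280364, Hormad1 on the plus strand at chr3:95559600-95559645, Mael on the minus strand at chr1:166238942-166238987, Tdrd9 on the plus strand at chr12:111971374-111971419, Fkbp6 on the minus strand at chr5:135350120-135350165 and Taf7l, a testis TFIID subunit gene that rose 3.32-fold, on the minus strand at chrX:134476514-134476559 (GRCm38.p6). Each line is in the direction of transcription with the E-box in capitals.
Stag3: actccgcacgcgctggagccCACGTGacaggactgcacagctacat
Hormad1: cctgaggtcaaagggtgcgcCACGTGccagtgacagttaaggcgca
Mael: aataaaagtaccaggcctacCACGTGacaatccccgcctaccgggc
Tdrd9: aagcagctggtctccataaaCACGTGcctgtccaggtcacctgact
Fkbp6: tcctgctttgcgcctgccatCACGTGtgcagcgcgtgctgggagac
Taf7l: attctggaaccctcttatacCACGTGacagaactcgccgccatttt

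The windows of upregulated genes held fewer CpG than those of tested genes and more than those of all genes. The median number of CpG per 100 bases was 4.0 for genes upregulated over 2-fold, 6.0 for genes downregulated over 2-fold, 6.67 for all tested genes and 2.33 for all 27025 windows. For the genes at the floor in control, which means at most 3 reads in each control library, and above it in every Ins/Del library, the median was 1.67. The E2F letters GGCGGGA or TCCCGCC, which are each other's reverse complement, were in 11.9% of upregulated windows, 19.1% of downregulated windows, 21.3% of tested windows and 11.4% of all windows. In the list of PRC1.6, the E2F6-containing Polycomb complex of germline genes, 6 of 14 members rose (42.9%) and 3 fell (21.4%), with *Mga* at 0.50 and *E2f6* at -0.73. Over all tested genes 30.6% rose and 31.9% fell.

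Members of the reproductive homeobox (*Rhox*) and *Xlr* families, both clustered on the X chromosome, were also higher. Of 31 *Rhox* genes 7 had enough reads to be tested. *Rhox2a*, *Rhox10* and all 10 *Xlr* genes had at most 9 reads in any control library and passed the filter on low counts through the mutant libraries, so their direction was largely fixed by the filter. *Rhox13* had 42.7, 34.6 and 41.1 normalised counts in control and 734.0, 793.1 and 724.3 in Ins/Del, and *Rhox5* had 361.6, 355.1 and 356.2 and then 3014, 3172 and 3211 (8.76-fold; edgeR, Benjamini-Hochberg adjusted p = 2.3e-37). All 10 *Xlr* genes together held between 12 and 24.9 normalised counts in control. *Xlr3a*, named for its X-linked expression in lymphocytes, had 4.27, 7.33 and 9.74 normalised counts in control and 376.2, 426.8 and 430.4 in Ins/Del. *Xlr5b* had no read in any control library and between 37.0 and 40.9 normalised counts in Ins/Del. Against the floor of 3 reads a library, *Xlr5a* was at least 33.0-fold higher, *Xlr3b* at least 32.3-fold, *Xlr4a* at least 20.8-fold and *Xlr5b* at least 13.0-fold. The *Xlr* copies are similar in sequence, so the split of reads between them is uncertain.

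Outside these lists, genes with large increases included other genes of reproductive tissue and early embryos. *Pramel6* and *Pramel7*, of a family expressed in germ cells and the inner cell mass, rose from 13.3 ± 2.30 to 607.4 ± 23.8 and from 18.1 ± 4.67 to 697.3 ± 16.4. *Gm13128*, a predicted gene, had 4.27, 3.14 and 0 normalised counts in control and 358.8, 362.7 and 358.7 in Ins/Del. *Gpx2*, a glutathione peroxidase of the gut, had 29.9, 22.0 and 30.3 and then 942.5, 941.1 and 952.2, and the metal transporter gene *Slc11a1* (5.27), the histidine-degrading enzyme gene *Hal* (4.80) and the protease inhibitor gene *Spink10* (4.78) followed. *Akr1cl*, an aldo-keto reductase gene, held 2, 0 and 2 reads in control and 256, 365 and 310 in Ins/Del, at least 106-fold more. *Gm13128* and *Akr1cl* passed the filter on low counts through the mutant libraries, so their direction was largely fixed by the filter. In all, 228 genes were at the floor in control and above it in every Ins/Del library, and 205 were the reverse.

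The 2 largest decreases among genes with a mean of at least 100 normalised counts were in *Acta2* and *Tagln*, both contractile genes. Of 16 tested smooth muscle contractile genes 12 fell, 9 over 2-fold, and 1 rose, with a median of -1.59. The summed level went from between 32835 and 33822 to between 14732 and 15368. *Acta2*, smooth muscle actin, had 851.5, 839.1 and 899.7 normalised counts in control and 16.4, 6.32 and 19.7 in Ins/Del. It was 61.2-fold lower (log2 -5.98, SE 0.147; edgeR, Benjamini-Hochberg adjusted p = 2.3e-30). *Tagln* (transgelin) had 2137, 2018 and 1828 and then 30.7, 25.3 and 41.7, with 62.4% of its exon length on an exon of *Gm48529* of the opposite strand. Calponins *Cnn1* (-2.96) and *Cnn2* (-1.79), caldesmon *Cald1* (-1.81), and tropomyosin *Tpm1* (-1.67) fell too, and the myosin light chain *Myl9* fell 3.06-fold. The myosin light chain kinase gene *Mylk* rose from 7.23 ± 2.04 to 37.4 ± 9.10. It passed the filter on low counts through the mutant libraries, so its direction was largely fixed by the filter.

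Targets of YAP and TEAD, the transcription factors that the Hippo pathway restrains, fell in all 15 tested members, 11 over 2-fold, with a median of -1.49. *Thbs1* (thrombospondin 1) had 2600, 2288 and 2407 normalised counts in control and 194.2, 207.5 and 170.1 in Ins/Del, a 12.8-fold decrease (edgeR, Benjamini-Hochberg adjusted p = 3.4e-34). *Ccn1*, a matricellular protein gene and early YAP target, had 1220, 1188 and 1073 and then 210.6, 225.6 and 207.1. *Ankrd1*, a nuclear muscle ankyrin protein, had 53, 55.5 and 49.8 and then 2.04, 3.61 and 3.47, and *Tgfb2* (-4.14), the receptor kinase *Axl* (-2.75) and *Ccn2* (-1.49) followed. *Ankrd1*, which is among the 15, passed the filter on low counts through the other lines, which largely fixed its direction. *Ajuba* (-1.14) and *Lats2* (-1.56), 2 of these 11, lie on the lower stretch of chromosome 14. The caveolin genes *Cav1* and *Cav2*, which form membrane pits, were at the floor in Ins/Del and at least 21.5-fold and 11.7-fold lower. For *Cav1* and *Cav2* as well, the filter largely fixed the direction. *Jun*, a partner of TEAD at many enhancers, fell by 2.12.

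The TEAD letters GGAATG on either strand (CATTCC on the other) were in 11.9% of the 11125 tested windows and in 14.6% of all windows. They were in 66.7% of windows of YAP and TEAD targets (8 of 12), in 7 of 14 windows of contractile genes, and in 14.1% of windows of all genes downregulated over 2-fold. The CArG box, the site of serum response factor, was in 1.26% of tested windows and 21.4% of windows of contractile genes (3 of 14). It was also in 28.0% of windows of *Rhox* genes (7 of 25), whose tested members rose. Among all genes downregulated over 2-fold the share was 1.41%. The windows of 5 downregulated genes are shown for the TEAD letters and those of Cnn2 and Myl9 for the CArG box, each with the match in capitals (RefSeq, GRCm38.p6). They lie at chr19:34255494-34255539 (minus strand, Acta2), chr3:145650063-145650108 (minus, Ccn1), chr19:36120029-36120074 (minus, Ankrd1), chr9:102717719-102717764 (plus, Amotl2, a YAP inhibitor whose gene fell by 1.10), chr9:67049244-67049289 (minus, Tpm1), chr10:79988524-79988573 (plus, Cnn2) and chr2:156775283-156775332 (plus, Myl9).
Acta2: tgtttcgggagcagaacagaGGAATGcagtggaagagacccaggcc
Ccn1: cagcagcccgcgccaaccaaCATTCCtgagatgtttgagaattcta
Ankrd1: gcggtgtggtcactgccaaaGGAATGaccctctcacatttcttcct
Amotl2: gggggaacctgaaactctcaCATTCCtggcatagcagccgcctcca
Tpm1: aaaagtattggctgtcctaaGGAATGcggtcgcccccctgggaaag
Cnn2: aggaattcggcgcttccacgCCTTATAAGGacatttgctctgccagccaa
Myl9: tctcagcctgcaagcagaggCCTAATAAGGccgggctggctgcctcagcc

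**Figure D3:**
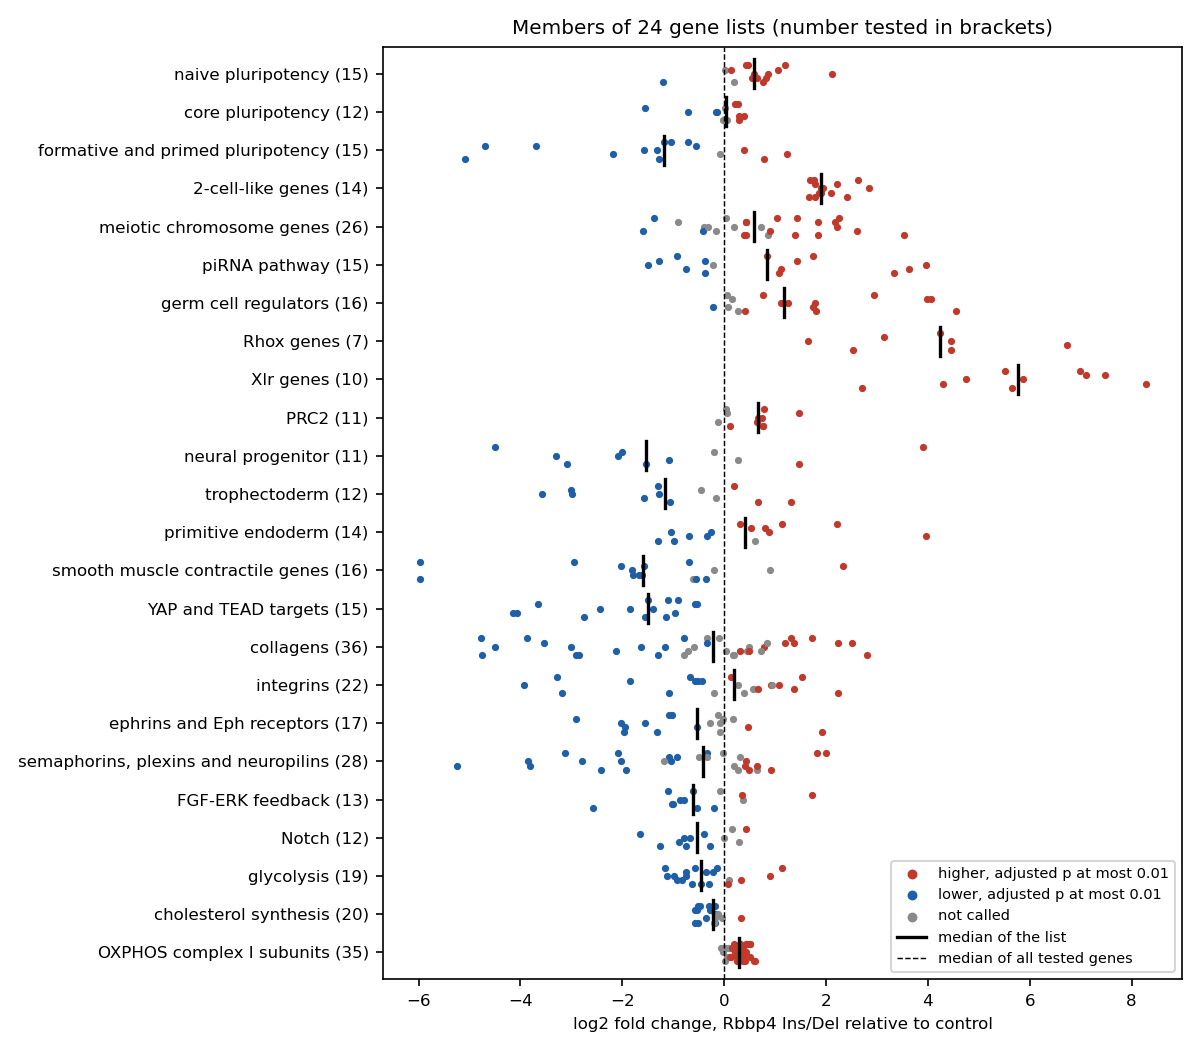
Log2 fold change of *Rbbp4* Ins/Del over control for the tested members of 24 gene lists, with a dot per gene and a bar at each median. The 2-cell-like members all lie above 0 and the YAP and TEAD targets all lie below it.

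Markers of differentiated lineages moved in both directions. Of 11 tested neural progenitor genes 7 fell over 2-fold and 2 rose over 2-fold, with a median of -1.54. *Pax6*, the neural and eye transcription factor, had 666.0, 694.5 and 674.5 normalised counts in control and 27.6, 28.0 and 34.7 in Ins/Del (log2 -4.50), and *Nes* (nestin) had 1771, 1716 and 1745 and then 212.6, 219.3 and 184.0. *Mapt*, the microtubule protein tau, went the other way, with 129.9, 148.7 and 133.2 in control and 2105, 2048 and 2035 in Ins/Del (15.0-fold; edgeR, Benjamini-Hochberg adjusted p = 3.5e-37). The neuronal tubulin *Tubb3* rose 2.74-fold and the dendrite protein *Map2* fell 4.20-fold. The summed level of the list was between 5051 and 5113 in control and between 4549 and 4671 in Ins/Del, and the other 10 members of 21, with at most 13 reads in a library, were not tested.

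Trophectoderm markers fell in 7 of 12 tested cases, 5 over 2-fold, and rose in 3, and their summed level went from between 5815 and 6422 to between 2885 and 3118. The keratins *Krt8* and *Krt18*, which form a pair in simple epithelia, fell 8.04-fold and 7.86-fold, with *Krt18* at 2136, 2199 and 1939 and then 242.3, 261.7 and 293.9. *Cdx2*, which defines the trophectoderm, had a mean of 30.1 normalised counts in control and 2.49 in Ins/Del, and *Elf5* had means of 0.698 and 3.47. The Ins/Del counts of *Cdx2* were below the limit of the filter on low counts, which largely fixed its direction. Fibroblast and feeder cell markers fell in 6 of 9 tested cases and rose in 2, with a summed level between 1100 and 1183 in control and between 973.1 and 989.6 in Ins/Del. *Col1a1* fell from 286.7 ± 21.3 to 24.4 ± 0.122 and *Col1a2* from 267.6, 271.3 and 211.1 to 12.3, 6.32 and 9.26, while the surface antigen *Thy1* rose from 45.7 ± 1.10 to 311.6 ± 12.8. The fibroblast markers *Dcn* and *Lum*, with at most 7.33 normalised counts in a library, were not tested. Most of the tested trophectoderm and fibroblast markers fell, as did most contractile genes, and the part of cells of these kinds in those results was not tested.

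In primitive endoderm 7 of 14 markers rose and 6 fell. *Hnf4a*, a regulator of visceral endoderm and liver, rose from 5.13, 4.19 and 3.25 to 66.4, 72.2 and 64.8. It passed the filter on low counts through the mutant libraries, so its direction was largely fixed by the filter. *Sox7* rose 4.77-fold, while *Dab2*, an endocytic adaptor, fell 2.45-fold. *Gata4* was lower as well (-1.05), and *Gata4* and *Sox7* lie on the lower stretch of chromosome 14. The summed level of the list went from between 20310 and 22157 to between 16781 and 17308. *Gata6*, which starts this lineage, stood at 16.2 ± 4.98 and 35.8 ± 8.36. Of 9 tested primitive streak and definitive endoderm genes 2 rose (22.2%) and 3 fell (33.3%), against 30.6% and 31.9% of all tested genes. *T* (Brachyury), the streak transcription factor, had 35.9, 54.5 and 43.3 normalised counts in control and 0, 0.902 and 0 in Ins/Del, at least 14.5-fold lower, and *Eomes* rose by 0.49. *T* passed the filter on low counts through the other lines, so its direction was largely fixed by the filter. Of 39 *Hox* genes 6 were tested, 1 rose (16.7%) and 2 fell (33.3%), and *Hoxa10* and *Hoxd9* were too low to be tested, as were *Pax7* and *Runx2*.

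In collagens and integrins the shares of genes called were near those over all tested genes. Of 36 collagens 10 rose (27.8%) and 14 fell (38.9%), against 30.6% and 31.9% of all tested genes. *Col12a1* (-3.87), *Col4a5* (-2.91) and *Col11a1* (-2.86) were among the lower, and *Col26a1* (2.51) and *Col5a3* (2.23) among the higher. Of 10 laminin genes 4 rose, among them *Lama3* (1.63), and 4 fell, among them *Lama4* (-1.74). Of 22 integrin genes 7 rose (31.8%), among them *Itgb7* (2.23), and 9 fell (40.9%), with the laminin receptor subunit *Itga3* at -1.84 and *Itgb1*, the shared beta chain, at -1.08. Of 13 classical cadherins 3 rose (23.1%) and 7 fell (53.8%). *Cdh1*, the E-cadherin of epithelia and ESCs, stood at -0.01, and *Cdh2*, N-cadherin, had 319.7, 281.8 and 302.1 normalised counts in control and 18.4, 19.9 and 17.4 in Ins/Del. In the Fraser complex, which anchors epithelia to the basement membrane, *Frem2* fell 8.65-fold, from 2114, 1988 and 2099 to 220.8, 249.9 and 246.4, and *Fras1* fell 3.50-fold, with 3 of 4 members lower and 0 higher. *Has2*, the hyaluronan synthase, fell from 271.9 ± 14.3 to 5.64 ± 3.45.

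In the axon guidance families members changed in both directions, and over all tested genes 30.6% rose and 31.9% fell. Of 28 semaphorin, plexin and neuropilin genes 13 fell, 10 over 2-fold, and 7 rose, 2 over 2-fold. *Sema6a*, a transmembrane semaphorin, had a mean of 442.3 ± 12.7 in control and 11.7 ± 3.01 in Ins/Del, *Sema3e*, a secreted one, had 1361, 1257 and 1355 and then 84.8, 101.1 and 94.9, and the co-receptor *Nrp2* fell 4.07-fold. *Sema5b* rose 4.04-fold. Of 17 ephrins and Eph receptors 9 fell, among them *Efna5* (-2.90), and 2 rose, among them *Epha4*, with 963.5, 1000 and 961.4 and then 3716, 3726 and 3682 (edgeR, Benjamini-Hochberg adjusted p = 8e-34). Of 13 netrins, Slits and their receptors 6 fell, with *Robo2* at -3.56, *Slit2* at -2.05 and *Unc5b* at -1.59, and 5 rose, with *Robo4* at 3.09 and *Dcc*, the netrin receptor, 3.03-fold higher.

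Signalling lists were also mixed, and over all tested genes 30.6% rose and 31.9% fell. In FGF-ERK feedback 9 of 13 members fell, among them the phosphatase *Dusp4* (-2.58) and *Spred1* (-1.02), and 2 rose, among them the transcription factor *Etv4* (1.72). In Notch 8 of 12 fell, with *Notch3* at -1.66 and its target *Hes1* at -0.67, and 1 rose. Of 10 Wnt response genes 5 fell, with *Tcf7* at -1.28 and *Sp5* at least 22.2-fold lower, and 3 rose, with the Wnt inhibitor *Notum* at 1.95. *Sp5* passed the filter on low counts through the other lines, so its direction was largely fixed by the filter. Of 14 Nodal and BMP response genes 5 fell (35.7%), with *Lefty1* at -0.95, and 3 rose (21.4%), with *Nodal* at 0.83. In LIF-STAT3 4 of 9 fell, led by the homeobox gene *Gbx2* (-1.33), and 1 rose, the receptor *Lifr* (0.70). In the retinoic acid response 5 of 10 rose and 4 fell, with *Crabp1* at 1.23 and the receptor *Rarg* at 0.85.

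Among imprinted genes 13 of 26 fell, 9 over 2-fold, and 8 rose, 4 over 2-fold. The neighbours *Igf2* and *H19*, which are expressed from opposite parental alleles, moved apart. *Igf2*, a fetal growth factor, had 1530, 1502 and 1472 normalised counts in control and 258.6, 307.7 and 290.4 in Ins/Del, and *H19*, a noncoding RNA, had 88.1, 75.4 and 70.4 and then 1046, 1204 and 1159 (14.6-fold; edgeR, Benjamini-Hochberg adjusted p = 2.9e-32). For *Igf2*, 62.8% of its exon length is shared with the read-through gene *Gm49394* of the same strand. *Plagl1* (2.98) and *Nnat* (2.93) rose, while *Grb10* (-1.25), *Magel2* (-2.49), *Ndn* (-1.57) and the noncoding RNAs *Meg3* (-1.22) and *Rian* (-1.29) fell. *Meg3* ranged from 6023 to 8235 in control and from 3044 to 3158 in Ins/Del.

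By position, chromosome 14 stood lower than the other chromosomes. Its 465 tested genes had a median log2 fold change of -0.60 and 62.8% of them were called lower. In the stretch from 45 to 88 Mb, whose borders were taken from earlier results of these data, the median was -0.92 over 265 genes, of which 215 were lower (81.1%), 108 over 2-fold, and 14 higher. On the rest of the chromosome the median was -0.10 over 200 genes. In the Ins/Ins line the stretch had a median of -0.90 against the same control libraries. On the X chromosome the median was -0.20, with 45.4% of 538 genes lower and 23.0% higher, and on the other autosomes the medians lay between -0.06 and 0.04. Scaling by totals shifted the median of all tested genes by -0.016. *Samd4*, an RNA-binding repressor (log2 fold change -5.74), and *Tpt1*, an abundant growth protein gene (-1.01), lie in the stretch. *Klf5* lies on chromosome 14 outside it. Without chromosome 14, 883 genes were upregulated over 2-fold and 1022 downregulated.

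**Figure D4:**
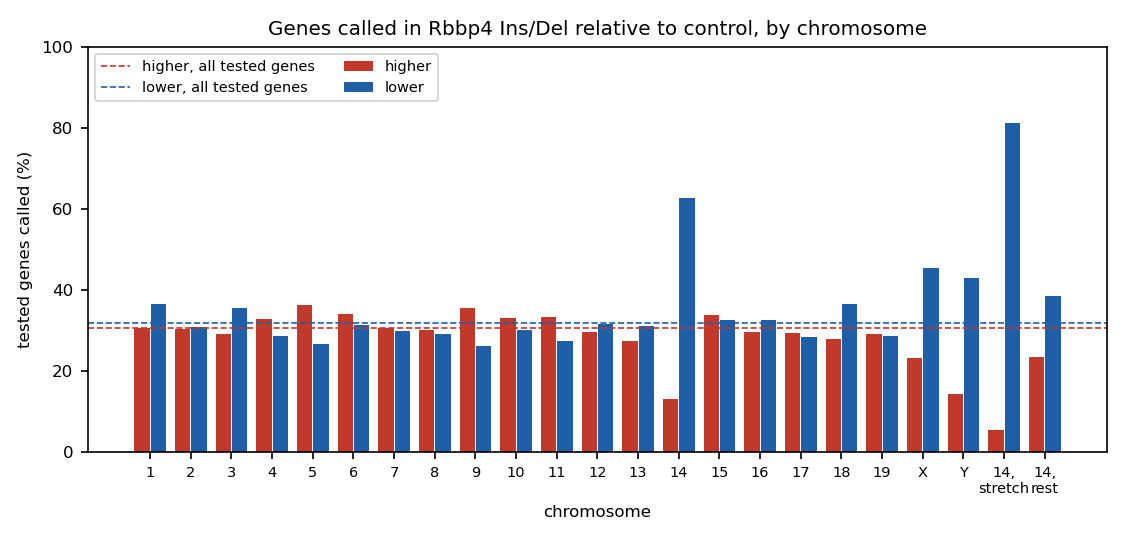
Percent of tested genes called higher and lower in *Rbbp4* Ins/Del than in control on each chromosome and on the 2 parts of chromosome 14, with dashed lines at the share over all tested genes. The stretch of chromosome 14 reaches 81.1% lower genes and the X chromosome 45.4%.

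The Ins/Del line was also tested directly against the Ins/Ins line, which shares the Ins allele. Of the 14125 tested genes 1527 differed (10.8%), 872 higher and 655 lower in Ins/Del. Of the 899 genes upregulated over 2-fold against control, 315 were higher in Ins/Del than in Ins/Ins and 7 were lower. Of the 1143 downregulated, 130 were lower than in Ins/Ins and 20 were higher. These genes were chosen on the same Ins/Del libraries that enter the direct test, which favours a difference in the direction of the choice, so these counts are a description. Against control, Ins/Ins was also called higher for 861 of the 899 genes and lower for 1119 of the 1143. The controls are shared by the comparisons of both lines, which favours such agreement. *Rbbp4* RNA itself differed, with a mean of 10359 ± 238 in Ins/Del and 5604 in Ins/Ins (log2 0.89; edgeR, Benjamini-Hochberg adjusted p = 4.1e-24).

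Of the *Xlr* genes 8 of 10 were above Ins/Ins. The summed *Xlr* level was between 329.3 and 360.5 in Ins/Ins and between 832.1 and 951.1 in Ins/Del. These genes passed the filter on low counts through the mutant libraries, which favours the line where they were highest, so the *Xlr* count is a description. *Rhox5* was higher by 0.68, and of the 14 tested 2-cell-like genes 10 were higher and 0 lower, with *Usp17le* at 0.45, *Zscan4a* at 0.51 and *Usp17lb* at 0.63. By DESeq2, without Ins/Del replicate 3 or without Ins/Ins replicate 1, 7 of them were higher. *Igf2* (mean 645.4 in Ins/Ins) and *Grb10* (6134) were lower in Ins/Del by 1.17 and 0.77 on the log2 scale, *Dppa3* (342.3) by 0.93, and *Tfap2c* (1763) by 0.70. Of 16 tested germ cell regulators 5 were higher in Ins/Del than in Ins/Ins and 2 were lower, with or without any 1 library. Of 26 meiotic genes 3 were higher and 1 was lower, and 1 was higher without Ins/Del replicate 1 or 2 or Ins/Ins replicate 1 or 3. Of 15 piRNA genes 3 were higher and 1 was lower, with 0 higher without Ins/Del replicate 2 or Ins/Ins replicate 1 or 3 and 1 higher without Ins/Del replicate 3. *Fkbp6* was higher by 0.26, and *Hormad1* (0.07) and *Tdrd9* (0.30) did not pass this test. Of 15 YAP and TEAD targets 1 was higher, with 0 higher without Ins/Del replicate 1 or Ins/Ins replicate 2, and *Thbs1* (0.14) and *Ccn2* (-0.05) did not pass. Of 84 ribosomal protein genes 51 were lower in Ins/Del than in Ins/Ins and 2 were higher, with a median of -0.11, and without Ins/Del replicate 1 the number lower was 31. Of 19 glycolysis genes 8 were lower and 1 was higher.

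**Figure D5:**
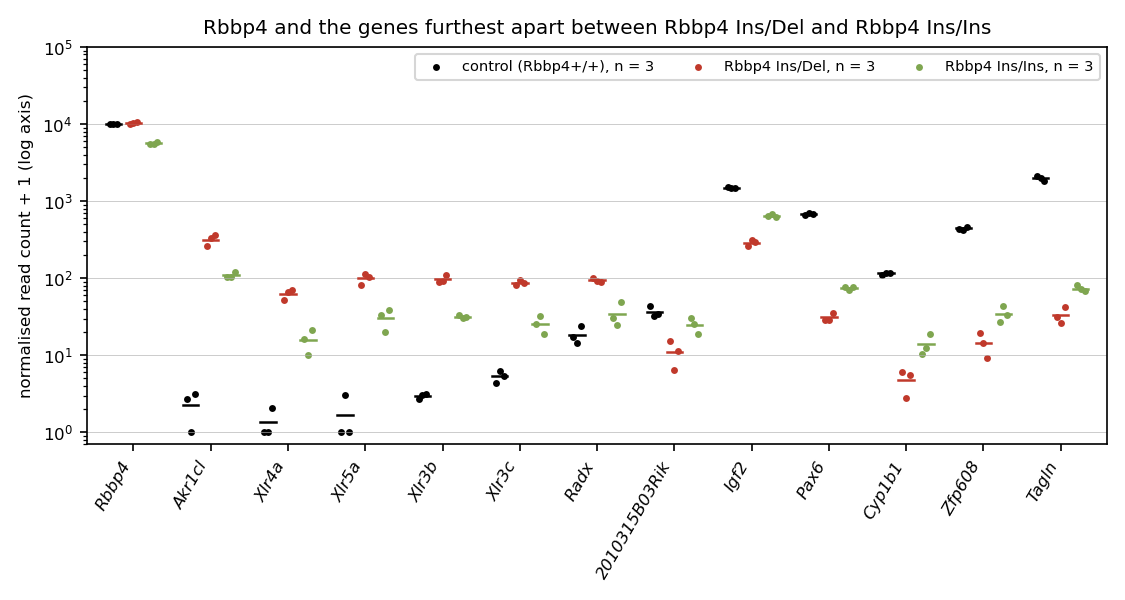
Normalised counts in each library of control, Ins/Ins and Ins/Del ESCs (log axis) for *Rbbp4* and the 12 genes that differed most between the mutant lines by the naming rule. In *Xlr4a*, *Xlr3c* and *Akr1cl* the Ins/Del libraries lie above Ins/Ins, and in *Pax6* and *Igf2* below.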

How the data were processed

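RNA-seq was carried out on 3 libraries each of control ESCs and of the Ins/Ins and Ins/Del lines. Per the labels, total RNA was isolated and libraries were made with a Kapa mRNA HyperPrep kit, and the methods give paired-end reads of 50 bp on a NovaSeq. The submitters' processing notes name STAR 2.7.3, HTSeq, DESeq2 1.22.2 and mm10. The annotation, the HTSeq version and the strand setting are not given in the sources used here, so overlapping genes and near-identical copies are uncertain. The values deposited by the authors are whole-number counts of reads per gene symbol, without normalization.

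Libraries were grouped by their genotype label. In R 4.3.3, edgeR 4.0.16 removed low genes with filterByExpr, scaled by TMM and fitted the quasi-likelihood model to all 9 libraries with no covariate. A gene below the filter limit in every library of a line could pass only through the other lines, which largely fixed its direction. This held for lower genes with few reads in Ins/Del as well as for higher genes with few reads in control. P-values were two-sided and adjusted by Benjamini-Hochberg over 14125 genes, with a limit of 0.01. Genes over 2-fold also needed a mean above 20 normalised counts over the 6 libraries. Normalised counts were brought to a common effective library size, the mean of the 9 libraries. A gene with at most 3 reads in each library of a line is at the floor there, and folds against it are lower bounds. Library totals between 15838064 and 21366868 reads set the precision. On simulated data with 200 changed genes for Ins/Del against control, 189 were recovered over 13880 genes, with 2 false calls. The changed genes were few beside those called in the data, had a mean above 20 counts and changed by at least 1.5-fold. The simulation therefore does not cover smaller changes, nor scaling where most genes change.

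Positions, exon overlaps and sequences come from GENCODE M21 (24374 symbols matched) and RefSeq on GRCm38 (a further 781 symbols), and 18651 symbols had a promoter window. Summaries used Python 3.11.15, pandas 2.3.3 and numpy 2.4.6. The gene lists and comparisons were chosen with earlier results of these data known. The genes named are *Rbbp4*, *Rbbp7* and genes the study assayed, the 10 higher and 10 lower genes with the largest fold and a mean of at least 100, the 6 with the largest difference per kb of exon in each direction, the 6 largest at the floor in each direction, up to 4 members of each list and the 6 in each direction that differ most between the mutant lines. Further members were named for their known roles after their values were seen. Alternatives were DESeq2 1.42.0, other scalings, filters, thresholds and samples, a replicate block, each library left out, and counts without chromosome 14. The list counts against Ins/Ins under these alternatives were added after seeing the data. *Eed* knockout and ChIP-seq data were not analysed here. Results for some genes are not reported here.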

Additional observations from a re-analysis of the deposited data

Results flagged for a closer look

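The following genes differed between the mutant lines by the direct edgeR test with Benjamini-Hochberg adjustment. Most of them were named because they differed most in this same test, so passing it is no further result. The *Xlr* genes and *Akr1cl* passed the filter on low counts through the mutant libraries. The values are log2 differences, Ins/Del minus Ins/Ins. Higher in Ins/Del were *Xlr4a* (2.04), *Xlr3c* (1.81), *Xlr5a* (1.70), *Xlr3b* (1.63) and *Xlr3a* (1.24), with *Akr1cl* (1.54) and *Radx* (1.47), a single-stranded DNA-binding protein gene of replication forks. *Radx* had 16.2, 13.6 and 22.7 normalised counts in control, a mean of 33.5 in Ins/Ins and 99.2, 90.2 and 87.9 in Ins/Del.

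Lower in Ins/Del were *Cyp1b1* (-1.73), *Pax6* (-1.31), *2010315B03Rik* (-1.29), *Zfp608* (-1.28), *Tagln* (-1.19) and *Igf2* (-1.17). *Cyp1b1*, a cytochrome P450 gene, had a mean of 114.3 in control, 12.9 in Ins/Ins and 3.85 in Ins/Del. *Zfp608*, a zinc finger gene, had a mean of 440.9 in control, 33.8 in Ins/Ins and 13.3 in Ins/Del.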

How the results depend on the processing

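Against control, DESeq2 called 4022 genes higher and 3954 lower, scaling by DESeq2 size factors 4429 and 4422, and scaling by totals 4129 and 4683. Leaving out 1 library at a time gave 3964 to 4246 higher and 4170 to 4253 lower genes, and 906 to 926 and 1114 to 1149 over 2-fold. A test against a 2-fold change called 713 genes lower in place of 1143, and a mean count above 100 left 439 higher and 626 lower. Between the mutant lines, DESeq2 called 421 genes lower in place of 655, an adjusted p limit of 0.05 gave 1426 higher and 1256 lower, and leaving out 1 library gave 576 to 681 higher and 406 to 522 lower. The counts of lower genes moved by over 1.5 times without Ins/Del replicate 2 (412; 576 higher), Ins/Del replicate 3 (422) and Ins/Ins replicate 1 (406). The cause was not tested.

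Replicate numbers are shared across lines, but deviations of same-numbered libraries correlated by only 0.02, -0.02 and 0.04, so the numbers do not pair the libraries. With the replicate block 4308 genes were higher and 4487 lower, and 857 and 642 between the mutant lines. The 12 alternatives were checked for the 188 tested genes named by the listed rules, and not for the further members. Of these 188 genes, 187 kept their call and direction. *Shc3*, a signalling adaptor (log2 fold change 0.98), lost it in 5, with values between 0.81 and 1.31 over all 12. Counts of list members that moved by over 1.5 times were those of lower acetyltransferase genes (3 without Ins/Del replicate 2 or 3, and by DESeq2), lower PRC1.6 genes (1 in the same settings), higher retinoic acid genes (3 without Ins/Del replicate 1, and by DESeq2), higher streak genes (1 in most settings), lower replication genes (0 to 4), higher cholesterol genes (0 without Ins/Del replicate 1) and higher Y-linked genes (2 without control replicate 1). Genes under 20 mean counts rest on few reads.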

Other observations

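Of 35 tested complex I subunits of the respiratory chain 28 rose and 0 fell, all by less than 2-fold, with a median log2 fold change of 0.30 and *Ndufa1* at 0.60. Of 19 glycolysis genes 14 fell and 4 rose. The glucose transporter *Slc2a3* fell 2.22-fold, from 38326 ± 935 to 17247 ± 208, and *Slc2a1* fell by 0.99 on the log2 scale, while the phosphofructokinase *Pfkp* rose 2.21-fold. Of 20 cholesterol synthesis genes 14 fell and 1 rose, with *Cyp51* at -0.57. Of 84 ribosomal protein genes 17 rose and 18 fell, and the one over 2-fold was the testis paralog *Rpl10l*, with 383.9, 371.9 and 328.0 normalised counts in control and 1656, 1639 and 1623 in Ins/Del. Of 20 glutathione transferases 6 rose (30.0%), led by *Gsta3* (2.98), and 7 fell (35.0%), led by *Mgst1* (-2.16). These shares were near those over all tested genes, 30.6% and 31.9%.

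Of 19 G2/M genes 9 fell and 2 rose, with *Mki67* at -0.51 and *Birc5* at 0.45. Of 22 DNA replication genes 9 rose and 1 fell, and under scaling by totals 4 fell. Among G1 cyclins and CDK inhibitors 8 of 16 rose and 5 fell. *Cdkn1a* (p21) rose from 513.0, 504.9 and 485.0 to 1476, 1639 and 1597, *Cdkn2a* rose 2.64-fold, and cyclin *Ccnd2* fell 11.8-fold. Of 15 p53 targets 7 rose (46.7%) and 4 fell (26.7%), against 30.6% and 31.9% of all tested genes. In the BCL2 family 5 of 16 rose (31.25%) and 7 fell (43.75%), with *Bcl2* at -3.82 and the oocyte gene *Bcl2l10* at least 10.6-fold higher. Of 11 immediate early and heat shock genes 2 rose, among them *Hspb1* (1.10), and 3 fell. Of 6 Y-linked genes *Kdm5d* rose 4.48-fold from 4.68 ± 1.46 and 2 fell, among them *Eif2s3y* (-0.75). *Kdm5d* and *Bcl2l10* passed the filter on low counts through the mutant libraries, so their direction was largely fixed by the filter.

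Other abundant genes were *Trh*, the precursor of thyrotropin-releasing hormone, which fell 7.59-fold, from 7747, 7909 and 7452 to 1028, 979.9 and 1034, the interferon-induced *Ifitm1*, which fell 3.48-fold, and the guanylate-binding protein genes *Gbp2* (-5.60) and *Gbp2b* (-5.88), which lie side by side on chromosome 3. The histone H3.3 gene *H3f3b* rose by 1.36.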
